A study of Mus musculus with 9 samples.

Results

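The serotonin neuron genes Tph2, Slc6a4, Fev, Gata2, Gata3, Htr1a, Htr1b and Slc22a3 were followed in RNA-seq of the adult mouse midbrain. They were chosen by their known roles in raphe neurons, by a rule that uses no measured value but was written with earlier results of these data known, and make up 8 of the 47729 genes in each count file. RNA was taken from the dissected dopamine (DA) area of the midbrain of C57/Bl6 mice at P180, an age of 180 days. Each of the 3 genotypes had 3 libraries, which makes 9, and the dissected pieces of 3 mice were combined for 1 library. By the study's methods each litter gave 1 mouse of every genotype to the pools, and the labels do not say which pools share litters. All mice carried Pitx3-Cre on 1 allele and a Rosa-lox-stop-lox-YFP reporter, and they differed in the number of floxed Dot1l alleles: Dot1l(+/+) had 0, Dot1l(fl/+) had 1 and Dot1l(fl/fl) had 2. Dot1l encodes the methyltransferase of histone H3 lysine 79. Cre made from the Pitx3 locus acts in DA neurons, so that other cells in the dissected piece, serotonin neurons among them, were not the target of the recombination.

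Serotonin neurons of the brain lie in the raphe nuclei along the midline of the brainstem, and the dorsal and median raphe reach into the caudal midbrain, behind and above the DA area. They make serotonin from tryptophan, pack it into vesicles with the same transporter that DA neurons use and take it back up through a transporter of their own. Their identity is kept by a set of transcription factors, of which Fev is the one most restricted to them, while Gata2 and Gata3 also serve GABA neurons of the midbrain. The receptors Htr1a and Htr1b act as autoreceptors on serotonin neurons and are also made by many neurons that receive serotonin.

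The promoters of the 3 members that are most restricted to serotonin neurons are given for reference, as the 250 bases before the RefSeq start of each gene on GRCm38.p6. Capitals mark matches to 3 short motifs that were searched on both strands: the GATA core AGATAA, the ETS core CCGGAA, the kind of site that Fev and other ETS factors bind, and the TATA box TATAAA. Tph2 lies at chr10:115185023-115185272 on the minus strand, Slc6a4 at chr11:76998347-76998596 on the plus strand and Fev at chr1:74885409-74885658 on the minus strand.
Tph2: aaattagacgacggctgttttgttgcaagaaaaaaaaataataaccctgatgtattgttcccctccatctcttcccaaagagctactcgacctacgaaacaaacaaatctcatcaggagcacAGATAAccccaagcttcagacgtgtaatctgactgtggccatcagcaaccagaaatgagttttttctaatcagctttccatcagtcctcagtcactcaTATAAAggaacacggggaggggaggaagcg
Slc6a4: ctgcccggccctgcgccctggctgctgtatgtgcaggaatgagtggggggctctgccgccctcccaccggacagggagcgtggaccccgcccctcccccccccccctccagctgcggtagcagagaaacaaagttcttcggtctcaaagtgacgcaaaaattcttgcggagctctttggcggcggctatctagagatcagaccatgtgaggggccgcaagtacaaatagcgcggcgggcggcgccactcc
Fev: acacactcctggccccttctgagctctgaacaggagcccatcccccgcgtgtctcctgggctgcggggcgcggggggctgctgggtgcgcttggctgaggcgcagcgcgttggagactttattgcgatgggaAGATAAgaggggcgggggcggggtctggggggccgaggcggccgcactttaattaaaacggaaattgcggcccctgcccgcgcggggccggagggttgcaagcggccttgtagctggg
The Tph2 promoter held a GATA core from 128 to 123 bases and a TATA box from 30 to 25 bases before the start, and the Fev promoter held a GATA core from 118 to 113 bases before it. The Slc6a4 window held none of the 3 motifs. Of all 32851 RefSeq promoters of the same length, 9.99% held the GATA core, 12.03% the ETS core and 12.4% the TATA box, so that each match is of a common kind. A GC content of 43.6% was found for the Tph2 window, beside 64.8% for Slc6a4 and 68% for Fev.

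The 9 libraries held 16422135 to 28403218 counts each. Dot1l itself lay between 60.6 and 85.1 CPM, the unit of counts relative to the library total that is used throughout (totals were scaled by the trimmed mean of M-values), with overlapping genotypes, and with Cre in DA neurons alone this level over the whole gene does not check the labels. DA genes were well covered, with Th at 44.5 to 84.3 CPM, although Pitx3 had only 2 to 21 counts per library. Other cells were strongly represented, with the 7 oligodendrocyte markers summing to 10163 to 11665 CPM and the 7 astrocyte markers to 3322 to 4007 CPM. Libraries of Dot1l(fl/+) stood apart in genes of tissue outside the midbrain: 8 hypothalamic genes summed to 126, 2.90 and 59.0 CPM in replicates 1, 2 and 3, against 1.67 to 9.55 CPM in the other genotypes, and 6 choroid plexus genes reached 584 CPM in replicate 3. The choroid plexus sum was 45.8, 39.4 and 43.0 CPM in Dot1l(fl/fl), below the 66.0 CPM or more of every library of the other genotypes.

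The synthesis enzyme and the reuptake transporter of serotonin were the tested members that varied most, and they did so between libraries of one genotype. Tph2, the rate-limiting enzyme of serotonin synthesis in the brain, lay at 4.63, 1.24 and 6.31 CPM in replicates 1, 2 and 3 of Dot1l(+/+). In Dot1l(fl/+) Tph2 lay at 5.48, 8.16 and 1.11 CPM, and in Dot1l(fl/fl) at 3.68, 2.53 and 1.39 CPM. Each genotype thus had a library near 1 CPM, and the ranges of the 3 genotypes overlapped. Within a genotype the highest Tph2 level was 5.07 times the lowest for Dot1l(+/+), 7.38 times for Dot1l(fl/+) and 2.64 times for Dot1l(fl/fl). These ratios have exact 95% intervals from counting alone of 3.40 to 7.80, 5.00 to 11.3 and 1.66 to 4.37. The intervals take no account of variation between animals, or of the choice of the highest and lowest library by the same counts.

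Slc6a4, the serotonin transporter, followed the same libraries over a wider range. Its levels were 2.03, 0.172 and 2.63 CPM in Dot1l(+/+), 1.96, 4.02 and 0.0381 CPM in Dot1l(fl/+), and 1.84, 0.790 and 0.303 CPM in Dot1l(fl/fl). Replicate 2 of Dot1l(+/+) and replicate 3 of Dot1l(fl/+), the lowest libraries of Tph2 in their genotypes, were also the lowest of Slc6a4, with 4 and 1 counts. In Dot1l(fl/+) the 114 counts of replicate 2 against 1 count of replicate 3 made a ratio of 106, with an exact 95% interval from 18.6 to 4205. In Dot1l(+/+) the ratio of highest to lowest was 15.3 (5.72 to 57.8), and in Dot1l(fl/fl) it was 6.07 (2.42 to 19.6). These intervals have the same limits as those of Tph2.

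Fev, the ETS factor that switches on and maintains the serotonin genes, was close to the limit of detection. It had 6, 2 and 4 counts in Dot1l(+/+), 1, 11 and 2 counts in Dot1l(fl/+), and 0, 3 and 3 counts in Dot1l(fl/fl), 32 in all. The count of 0 in replicate 1 of Dot1l(fl/fl) allows up to 0.120 CPM by counting error alone, and the 11 counts fell in the library with the highest Tph2 and Slc6a4. Fev did not pass the filter on low counts and was left out of the edgeR fit.

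The other transcription factors were steady. Gata2, a zinc finger factor of serotonin and GABA neurons, lay at 9.92, 8.88 and 8.07 CPM in Dot1l(+/+), 8.30, 8.19 and 8.50 CPM in Dot1l(fl/+), and 7.75, 8.73 and 8.12 CPM in Dot1l(fl/fl). Its relative, Gata3, lay at 13.7, 13.6 and 12.4 CPM, then 13.0, 12.8 and 9.99 CPM, and then 12.1, 13.7 and 12.1 CPM in the same order of genotypes. The libraries with the least Tph2 were not the lowest for Gata2, although replicate 3 of Dot1l(fl/+) had the lowest Gata3 of all 9. The Gata3 exons overlap those of 9230102O04Rik on the same strand, which had 37 counts over all libraries against 2741 of Gata3.

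The receptors were the most abundant members. Htr1a, the autoreceptor on the cell body, lay at 25.8, 25.1 and 23.6 CPM in Dot1l(+/+), 20.8, 27.3 and 19.4 CPM in Dot1l(fl/+), and 25.5, 25.1 and 26.4 CPM in Dot1l(fl/fl). Htr1b, the receptor on axon terminals, lay at 20.5, 23.5 and 19.7 CPM, 23.6, 15.1 and 19.8 CPM, and 19.6, 20.9 and 21.03 CPM. Both receptors had their widest range in Dot1l(fl/+), where replicate 2 held the highest Htr1a and the lowest Htr1b of all libraries. Htr1b overlaps exons of the antisense gene D430036J16Rik, which had 217 counts against 4423 of Htr1b, and the strand setting of the counting is not given in the sources used here.

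Slc22a3, a low-affinity carrier of monoamines that is not restricted to neurons, had 38 to 65 counts per library. Its levels were 2.69, 2.32 and 1.46 CPM in Dot1l(+/+), 2.54, 2.29 and 2.21 CPM in Dot1l(fl/+), and 1.60, 1.78 and 2.30 CPM in Dot1l(fl/fl). The 3 genotypes overlapped here as well.

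**Figure D1:**
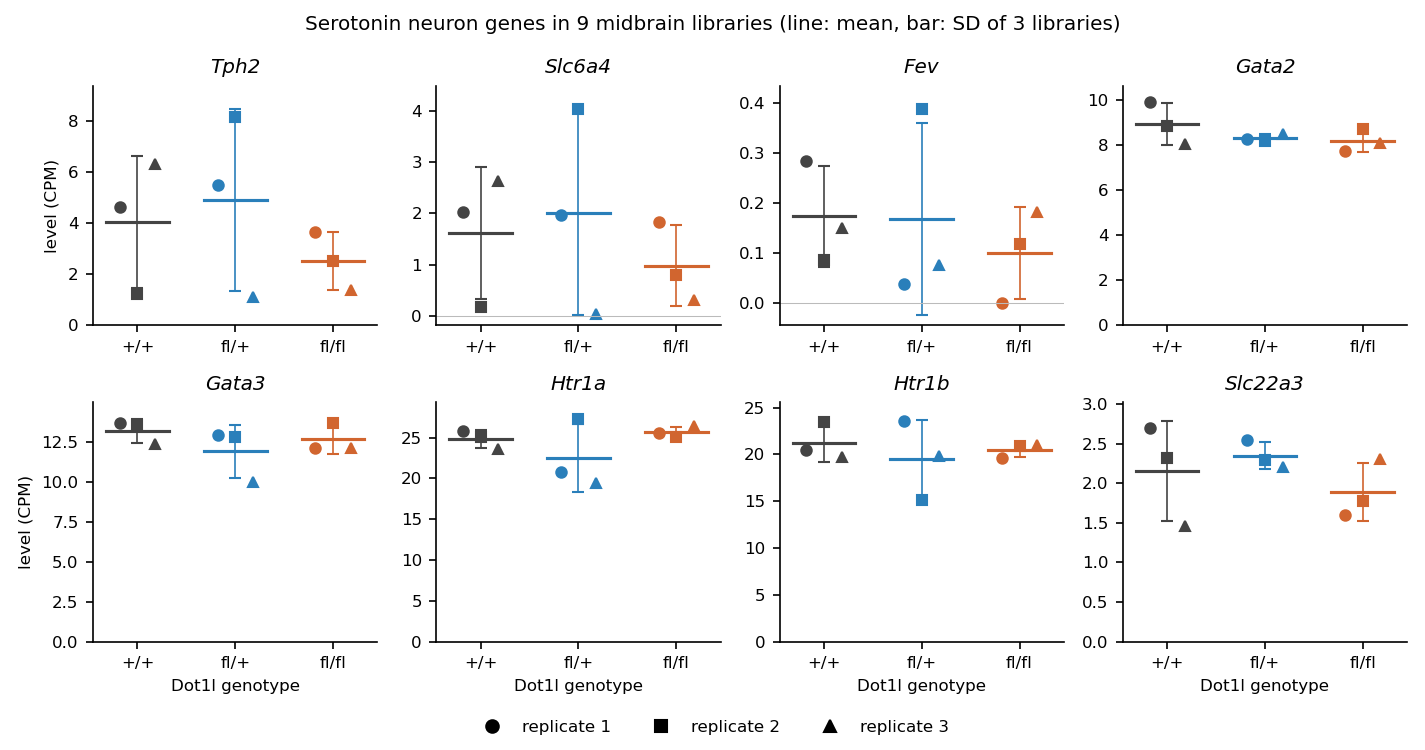
Level of each of the 8 serotonin neuron genes in CPM (linear axis that includes 0) by Dot1l genotype, with 1 point per library, the mean as a line and the SD of 3 libraries as a bar. Tph2 ranged from 1.11 to 8.16 CPM and Slc6a4 from 0.0381 to 4.02 CPM with no separation of genotypes, whereas Gata2 stayed between 7.75 and 9.92 CPM.

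To compare levels between genes, CPM was divided by the length of all exons in kb. In Dot1l(+/+) the order on this scale was Htr1a at 5.54 ± 0.249 (SD, n = 3), Htr1b at 4.49 ± 0.426, Gata3 at 3.32 ± 0.187, Gata2 at 1.66 ± 0.172 and Tph2 at 1.41 ± 0.896 CPM per kb. Slc22a3 followed at 0.478 ± 0.140, then Slc6a4 at 0.355 ± 0.283 and Fev at 0.107 ± 0.0624 CPM per kb. From Gata2 downwards no gene differed from the next in this order beyond their spread. In Dot1l(+/+) Tph2, Slc6a4 and Fev, the members most restricted to serotonin neurons, thus had lower means than the receptors and Gata factors that other neurons share. In Dot1l(fl/+) the mean of Tph2, 1.71 ± 1.24 CPM per kb, was above that of Gata2, 1.54 ± 0.0294.

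The spread was set beside that of the whole transcriptome. The SD of log2 CPM between libraries of the same genotype, pooled over genotypes, had a median of 0.126 over the 17671 genes tested. Slc6a4 had an SD of 2.01, and 10 genes had a larger one. Tph2 had an SD of 1.17, and 36 genes had a larger one. Among the genes within 2-fold of its own level, 3 of 2898 exceeded Tph2 and 2 of 2642 exceeded Slc6a4. The variance of the counts within genotypes was 39.2 times that of counting alone for Tph2 and 29.7 times for Slc6a4, but 1.04 times for Gata2, 2.10 times for Slc22a3, 2.90 times for Gata3 and 3.04 times for Fev. Htr1a and Htr1b lay between, at 7.55 and 10.1 times, with an SD on the log2 scale of only 0.154 and 0.203. The 12 DA genes from the same tissue had SDs from 0.106 for Aldh1a1 to 0.491 for Pitx3, which had few counts, with 0.195 for Th, the enzyme of dopamine synthesis, and 0.151 for Slc6a3, the dopamine transporter. All 12 were below the SD of Tph2.

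**Figure D2:**
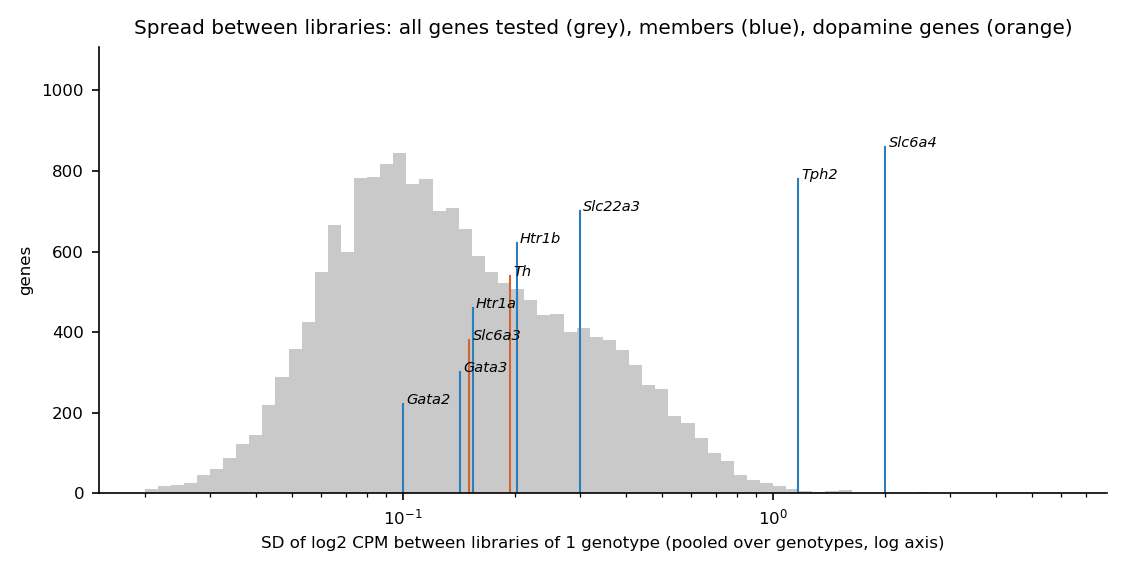
Number of genes (y axis) by the SD of log2 CPM between libraries of 1 genotype (x axis, log scale) for all 17671 genes tested, with the 7 tested members as blue lines and Th and Slc6a3 as orange lines; the line heights only separate the names. Tph2 at 1.17 and Slc6a4 at 2.01 lie far to the right of the median of 0.126, and Gata2 at 0.0999 lies below it.

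Next, the members were compared with Tph2 across the 9 libraries. Slc6a4 varied together with Tph2, with a Pearson r of 0.973 (exact permutation p = 5.51e-06, adjusted over 7 pairs 3.86e-05) and a Spearman rho of 0.983 (exact permutation p = 4.96e-05, adjusted 0.000347). Without the 2 libraries farthest from the median of Tph2, the Pearson r was 0.982 (exact permutation p = 0.000397). With the genotype means removed and the pairings permuted within genotypes, r was 0.995 (exact permutation p = 0.00463, adjusted 0.0324), where this p is the smallest that the 3 libraries per genotype allow, and the order of the libraries was the same for both genes within every genotype. The relation was therefore also seen among libraries of 1 genotype.

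None of the remaining members passed this test. Pearson r with Tph2 was 0.382 for Gata3, 0.286 for Fev, 0.234 for Htr1a, -0.115 for Gata2, -0.146 for Slc22a3 and -0.470 for Htr1b, with adjusted exact permutation p between 0.718 and 0.791. Spearman rho lay between -0.400 and 0.383 for these 6 genes, with adjusted p between 0.574 and 0.880. Fev had only 0 to 11 counts per library.

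The share of Slc6a4 was lowest in the libraries that were low for both genes, but beyond counting error only in replicate 3 of Dot1l(fl/+), with 1 count. Slc6a4 made up 30.5, 12.1 and 29.4% of the summed Slc6a4 and Tph2 counts in Dot1l(+/+), 26.3, 33.0 and 3.33% for Dot1l(fl/+), and 33.3, 23.8 and 17.9% for Dot1l(fl/fl). The share of 3.33% in replicate 3 of Dot1l(fl/+) had an exact (Clopper-Pearson) 95% interval of 0.0844 to 17.2%, below the 28.1 to 38.3% of replicate 2. In replicate 2 of Dot1l(+/+) the interval was 3.40 to 28.2%, and it overlapped that of both other libraries of the genotype. In replicate 3 of Dot1l(fl/fl) it was 6.06 to 36.9%, and it overlapped both others as well. Tph2 thus kept a level near 1 CPM where Slc6a4 was close to 0.

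The genes most like Tph2, Slc6a4 and Fev over the 9 libraries were ranked by Pearson r with the mean of the standardised log2 CPM of these 3 members. The 10 with the highest r were Cryl1 (0.986), Zfp503 (0.920), Hoxb3 (0.916), Impa1 (0.915), Gm37602 (0.913), Zfp277 (0.913), Ywhaq (0.911), Cadps2 (0.903), Tmem198 (0.901) and Gm12565 (0.891). They were picked from 17671 genes over 9 libraries and are given as a description, with no test. Most of the 10 changed little in level: Cryl1 lay between 7.21 and 10.3 CPM and Impa1 between 70.0 and 81.3 CPM. Gm37602, between 1.49 and 3.46 CPM, and Gm12565, between 0.644 and 1.16 CPM, varied more, with an SD within genotypes of 0.407 and 0.305 on the log2 scale.

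Of the 10, Hoxb3 had the widest spread, between that of Tph2 and that of Slc6a4. Hox genes encode homeodomain factors that mark positions along the hindbrain and spinal cord and are silent in the midbrain proper. Hoxb3 had 18, 1 and 36 counts in Dot1l(+/+), 21, 43 and 0 counts in Dot1l(fl/+), and 15, 13 and 5 counts in Dot1l(fl/fl), which is the order of Tph2 within each genotype. Its SD within genotypes was 1.72 on the log2 scale, and its r with Tph2 was 0.934. After Hoxb3 had been seen, the 15 Hox genes of paralogue groups 1 to 5 were summed, of which 14 had a count and 2 passed the filter. The sums were 3.02, 0.772 and 6.23 CPM in Dot1l(+/+), 2.86, 7.94 and 0.686 CPM in Dot1l(fl/+), and 2.96, 2.25 and 1.82 CPM in Dot1l(fl/fl), again in the order of Tph2 within each genotype. No test was made on this list, which was chosen after values were seen, and the part of hindbrain tissue in the spread of Tph2 and Slc6a4 was not tested.

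**Figure D3:**
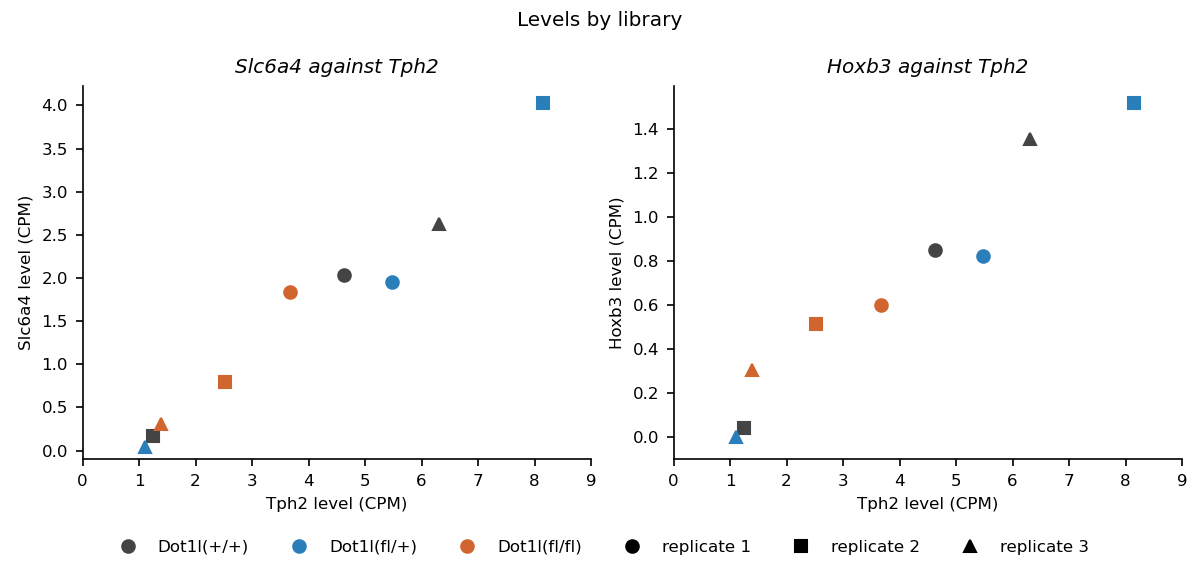
Level of Slc6a4 (left) and of Hoxb3 (right) in CPM against the level of Tph2 in CPM, with 1 point per library, coloured by genotype and shaped by replicate number. The libraries run from replicate 3 of Dot1l(fl/+) at 1.11 CPM of Tph2 to replicate 2 of the same genotype at 8.16 CPM, and those of Dot1l(fl/fl) lie between 1.39 and 3.68 CPM.

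Sums of hypothalamic and choroid plexus markers did not share this order. In the library with the least Tph2, replicate 3 of Dot1l(fl/+), the hypothalamic sum was 59.0 CPM and the choroid plexus sum 584 CPM. In replicate 2 of Dot1l(+/+), with nearly as little Tph2, these sums were 1.67 and 66.0 CPM, the lowest of the controls. In replicate 1 of Dot1l(fl/+), with the highest hypothalamic sum of 126 CPM, Tph2 stood at 5.48 CPM. Noradrenaline neurons of the locus coeruleus, which lie further back than the dorsal raphe, left almost no counts. The 6 genes of their list summed to 0.425, 0.343 and 0.225 CPM in Dot1l(+/+), 0.313, 0.530 and 0.0763 CPM in Dot1l(fl/+), and 0.639, 0.277 and 0.364 CPM in Dot1l(fl/fl). This list holds Hoxa2, which is also among the Hox genes above and had 0, 7 and 0 counts in Dot1l(fl/+). Without Hoxa2 the sums were 0.378, 0.257 and 0.113 CPM, then 0.313, 0.282 and 0.0763 CPM, and then 0.360, 0.158 and 0.242 CPM in the same order of genotypes, in the order of Tph2 within none of them. Slc6a2, the noradrenaline transporter, had 0 counts in all 9 libraries, and Dbh, the enzyme of noradrenaline synthesis, had 2 to 6. None of these 6 genes passed the filter. The 8 genes of interpeduncular and habenular neurons, cells of the midline near the raphe or projecting there, summed to 50.1, 55.2 and 60.1 CPM in Dot1l(+/+), 49.8, 61.8 and 37.9 CPM in Dot1l(fl/+), and 50.3, 46.9 and 45.7 CPM in Dot1l(fl/fl). Their sum followed the order of Tph2 within both floxed genotypes but not within Dot1l(+/+), over a range of 37.9 to 61.8 CPM. Chrnb3 and Irx2 were the most abundant of the 8. In Dot1l(fl/fl) Irx2 lay at 18.5, 13.8 and 13.8 CPM, while Chrnb3 ran against the order of Tph2, at 15.3, 16.8 and 17.0 CPM. The part of interpeduncular and habenular neurons in the spread of Tph2 and Slc6a4 was not tested.

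The question of the design is whether removal of 1 or 2 Dot1l alleles from Pitx3-expressing cells altered expression in the midbrain, and the serotonin neuron genes give the values of a monoamine class without Pitx3. In the edgeR quasi-likelihood test no member passed an adjusted p of 0.05 in any of the 3 comparisons, and no member had an unadjusted p below 0.05, in this fit or in DESeq2. Of all 17671 genes 0% passed the adjusted threshold in each comparison, while 8.39% had an unadjusted p below 0.05 for Dot1l(fl/+) against Dot1l(+/+), 3.93% for Dot1l(fl/fl) against Dot1l(+/+) and 6.48% for Dot1l(fl/fl) against Dot1l(fl/+). For none of the 7 tested members were the libraries of 2 genotypes without overlap, beside 13.3, 10.3 and 11.1% of all genes in the same order. The comparisons share libraries and are not independent of each other. In tissue RNA, fewer cells of a type and less RNA per cell cannot be told apart.

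For Tph2 and Slc6a4 the comparisons left a wide range of changes possible. Tph2 differed by 0.27 on the log2 scale (SE 0.56, 95% interval -0.94 to 1.48, edgeR adjusted p = 0.926) between Dot1l(fl/+) and Dot1l(+/+). In Dot1l(fl/fl) its mean of 2.53 ± 1.14 CPM was below the 4.06 ± 2.58 CPM of Dot1l(+/+) (SD, n = 3), with a log2 fold change of -0.65 (SE 0.61, interval -1.95 to 0.66). The fitted level of Tph2 in Dot1l(fl/fl) could thus lie anywhere from 0.258 to 1.58 times the control level. Slc6a4 gave nearly the same estimates, 0.32 (SE 0.83, -1.48 to 2.11) for Dot1l(fl/+), then -0.65 (SE 0.92, -2.63 to 1.32) for Dot1l(fl/fl) against Dot1l(+/+), or 0.161 to 2.50 times the control level for the latter. Between Dot1l(fl/fl) and Dot1l(fl/+) the log2 fold change was -0.92 (SE 0.59) for Tph2 and -0.97 (SE 0.89) for Slc6a4, with edgeR adjusted p of 0.812 and 0.865.

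These values turned on single libraries. Without replicate 2 of Dot1l(+/+) the log2 fold change of Tph2 in Dot1l(fl/+) went from 0.27 to -0.15, and without replicate 2 of Dot1l(fl/+) it went to -0.32. Slc6a4 moved in the same way, to -0.20 and -0.71. In Dot1l(fl/fl) against Dot1l(+/+) the value of -0.65 for Tph2 was -0.16 without replicate 3 and -1.07 without replicate 2 of Dot1l(+/+), and -1.01 without replicate 1 and -0.39 without replicate 3 of Dot1l(fl/fl). For Slc6a4 the same removals gave -0.068, -1.18, -1.47 and -0.30. Without replicate 2 of Dot1l(fl/+) the difference between Dot1l(fl/fl) and Dot1l(fl/+) shrank to -0.33 for Tph2 and turned to 0.057 for Slc6a4. Without replicate 3 of Dot1l(fl/+) it grew to -1.38 for Tph2 and -1.54 for Slc6a4, with unadjusted p of 0.0105 and 0.0416 and an adjusted p of 0.951 for both. With both Dot1l(fl/+) libraries of high hypothalamic counts left out, a choice made after the data were seen, these differences were -1.64 and -1.95, with adjusted p of 0.189 and 0.273. Dot1l(fl/+) was then 1 library, the one with the most Tph2 and Slc6a4, which was assumed to vary like the other genotypes. When edgeR was run with no filter on low counts, Tph2 passed the adjusted threshold in this comparison (-0.92, adjusted p = 0.000671), which was the one adjusted call of a member under any setting tried.

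The other members were bounded more tightly. In Dot1l(fl/fl) against Dot1l(+/+) the log2 fold change was 0.049 (95% interval -0.18 to 0.28) for Htr1a, -0.050 (-0.34 to 0.24) for Htr1b, -0.058 (-0.31 to 0.19) for Gata3, -0.12 (-0.36 to 0.11) for Gata2 and -0.20 (-0.71 to 0.32) for Slc22a3. The last of these was -0.0085 without replicate 1 and -0.42 without replicate 3 of Dot1l(+/+). As a fold, Htr1a in Dot1l(fl/fl) lay between 0.880 and 1.22 times its level in Dot1l(+/+). In Dot1l(fl/+) against Dot1l(+/+) the values were -0.14 for Htr1a, -0.12 for Htr1b, -0.15 for Gata3, -0.10 for Gata2 and 0.14 for Slc22a3, with SE of 0.11 to 0.23. These values also moved with single libraries of either genotype. Htr1a was -0.30 without replicate 2 (unadjusted p = 0.00219, edgeR adjusted p = 0.282) and -0.045 without replicate 3 of Dot1l(fl/+), and Htr1b was -0.28 without replicate 1 (unadjusted p = 0.0368, edgeR adjusted p = 0.363) and 0.030 without replicate 2 of Dot1l(fl/+), and -0.038 without replicate 2 of Dot1l(+/+). Gata3 was -0.036 without replicate 3 of Dot1l(fl/+), and Gata2 was -0.024 without replicate 1 and -0.17 without replicate 3 of Dot1l(+/+). Slc22a3 was 0.32 and -0.089 without the same libraries of Dot1l(+/+). Between Dot1l(fl/fl) and Dot1l(fl/+) the lowest unadjusted p of any member was found, 0.105 for Htr1a (0.19, SE 0.11, edgeR adjusted p = 0.791). This difference rested on Dot1l(fl/+), where replicates 1 and 3 were low: without replicate 2 it was 0.35 (unadjusted p = 0.000695, adjusted p = 0.170), and without replicates 1 and 3, which left 1 library of Dot1l(fl/+), it was -0.087.

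The median log2 fold change of the 7 tested members against Dot1l(+/+) was -0.10 for Dot1l(fl/+) and -0.12 for Dot1l(fl/fl), and between the floxed genotypes it was -0.022. Over all genes tested these medians were -0.0034, 0.00090 and 0.0015. The number of members below 0 was 4, 6 and 4 of 7.

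**Figure D4:**
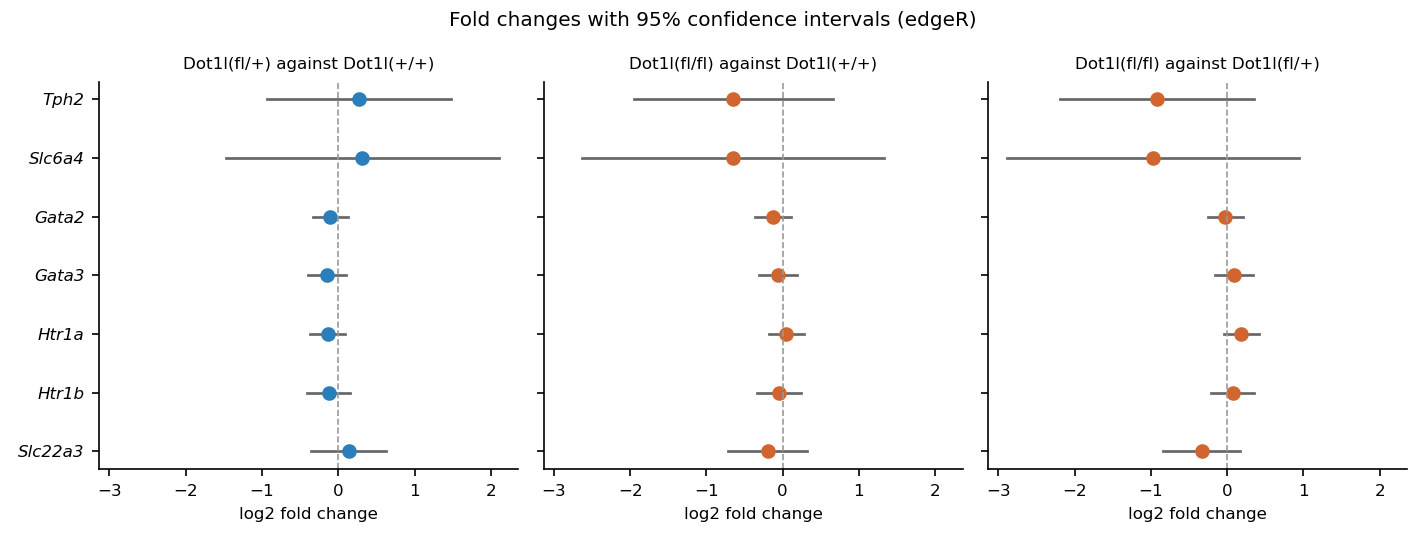
Log2 fold change (x axis) of the 7 tested members in the 3 comparisons between genotypes, with the edgeR estimate as a point and its 95% confidence interval as a line. Every interval includes 0, and those of Tph2 and Slc6a4 span 2.42 to 3.96 log2 units against 0.464 to 1.03 for the other members.

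Genes that serotonin neurons use together with other cells were examined from a list of 14. Of these, 6 had an unadjusted p below 0.05 and were lower in Dot1l(fl/fl) than in Dot1l(+/+), against 1.72% of all genes, and none was higher, but none passed the adjusted threshold. They were Slc18a2, the vesicular monoamine transporter, at -0.68 (SE 0.11, edgeR adjusted p = 0.197), Ddc, the decarboxylase of serotonin and dopamine synthesis, at -0.39 (SE 0.080, adjusted p = 0.970), Gch1, which makes the cofactor of both hydroxylases, at -0.40 (SE 0.14), and the transcription factors Lmx1b at -0.56 (SE 0.16), En1 at -0.49 (SE 0.18) and Foxa2 at -0.59 (SE 0.24). All 6 are also used by DA neurons of the midbrain, and 4 of them stood in the list of DA genes as well. In Dot1l(fl/+) 2 of the 14, Ddc and Slc18a2, were lower than in Dot1l(+/+) at this level, beside 4.09% of all genes, and 4 were lower in Dot1l(fl/fl) than in Dot1l(fl/+), beside 2.87%.

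The 8 other genes of that list had no unadjusted p below 0.05 in any comparison. Among them were Nkx2-2, a factor of serotonin progenitors, at -0.020 (SE 0.12) in Dot1l(fl/fl) against Dot1l(+/+), and Maob, the monoamine oxidase of serotonin neurons and glia, at 0.035 (SE 0.080). Lmx1b, which raphe and DA neurons both need, lay between 4.92 and 6.52 CPM in Dot1l(+/+), 4.73 and 6.94 CPM in Dot1l(fl/+), and 3.64 and 4.12 CPM in Dot1l(fl/fl), so that the libraries of Dot1l(fl/fl) lay below all others.

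The DA list gave the other monoamine class in the same libraries. Of its 12 genes, 8 were lower in Dot1l(fl/fl) than in Dot1l(+/+) at an unadjusted p below 0.05, with a median log2 fold change of -0.39, 3 were lower in Dot1l(fl/+) than in Dot1l(+/+), and 7 were lower in Dot1l(fl/fl) than in Dot1l(fl/+), beside 1.72, 4.09 and 2.87% of all genes. Th stood at -0.71 (SE 0.12, edgeR adjusted p = 0.248) and Slc6a3 at -0.68 (SE 0.093, adjusted p = 0.0906) in Dot1l(fl/fl) against Dot1l(+/+). The estimates for Tph2 and Slc6a4 in this comparison had a standard error of 0.61 and 0.92 in place of 0.12 and 0.093, and moved with single libraries as given above.

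The ratio of the 2 classes was therefore taken within each library. Log2 of Slc6a3 over Slc6a4 was 6.29, 9.21 and 5.74 in Dot1l(+/+), 6.11, 5.07 and 9.77 for Dot1l(fl/+), and 5.62, 6.73 and 8.03 for Dot1l(fl/fl). Log2 of Th over Tph2 was 4.16, 5.87 and 3.33 in Dot1l(+/+), 3.59, 3.17 and 5.46 for Dot1l(fl/+), and 3.70, 4.09 and 4.93 for Dot1l(fl/fl). The highest value of each genotype came from a library with little Tph2, and no genotype was apart from another. The mean difference between Dot1l(fl/fl) and Dot1l(+/+) was -0.28 for the transporters and -0.21 for the enzymes, with an exact two-sided permutation p of 0.8 for both. Over the 6 comparisons of ratios the exact permutation p ran from 0.6 to 0.9 (adjusted 0.9), where 3 against 3 libraries cannot go below 0.1, so that no difference of any size could have passed 0.05 in this test.

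**Figure D5:**
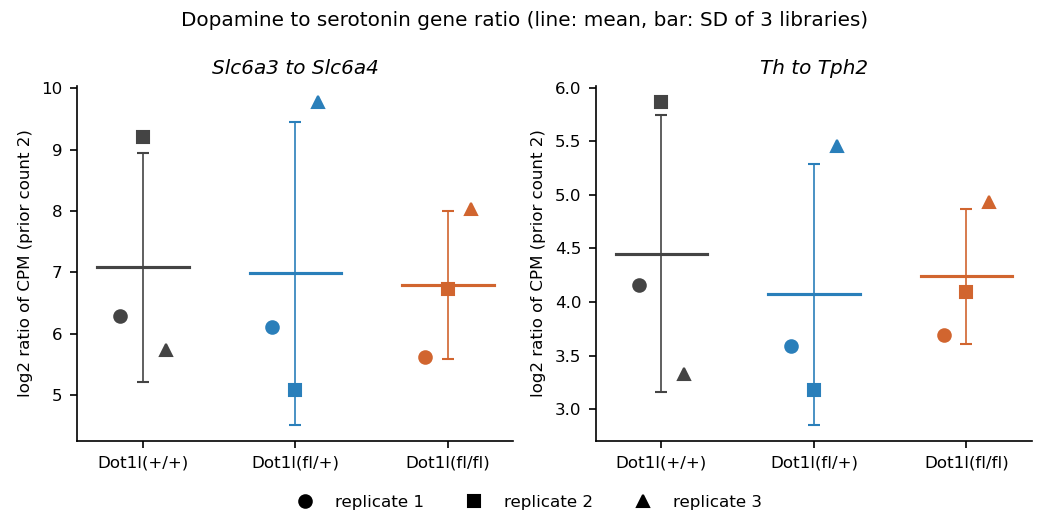
Log2 ratio of Slc6a3 to Slc6a4 (left) and of Th to Tph2 (right) in each library by genotype, with the mean as a line and the SD of 3 libraries as a bar; the y axes do not start at 0. Replicate 2 of Dot1l(+/+), replicate 3 of Dot1l(fl/+) and replicate 3 of Dot1l(fl/fl) are the highest of their genotypes in both panels.

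Cells that receive serotonin were represented by the 12 further serotonin receptor genes, although Htr1d and Htr5b also stood in the list of 14 above. Of the 10 that passed the filter, Htr4, a receptor coupled to cyclic AMP production, was lower in Dot1l(fl/+) than in Dot1l(+/+). Its log2 fold change was -0.29 (SE 0.13, unadjusted p = 0.0421, edgeR adjusted p = 0.574). No other comparison of a receptor had an unadjusted p below 0.05. In Dot1l(fl/+) against Dot1l(+/+) 4.09% of all genes were lower at this level. Htr2c, the most abundant of them, lay between 144 and 168 CPM over the 9 libraries. Htr3b and Htr2b had at most 2 and 4 counts in a library.

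For the lists of neighbouring cells, the share of all genes with an unadjusted p below 0.05 that were higher was 4.3, 2.21 and 3.6% in Dot1l(fl/+) against Dot1l(+/+), Dot1l(fl/fl) against Dot1l(+/+) and Dot1l(fl/fl) against Dot1l(fl/+), beside 4.09, 1.72 and 2.87% that were lower. Among these lists, the 9 genes of midbrain GABA neurons, which share Gata2 and Gata3, had no unadjusted p below 0.05 in any comparison, and neither had the 7 endothelial genes. Of 8 genes of interpeduncular and habenular neurons, 2, 2 and 1 were lower at this level in the same order of comparisons. These were Chrnb3 and Chrna5, then Chrna3 and Chrna5, and then Chrna3. All are nicotinic receptor subunits, and the study counts cholinergic receptors among the genes of DA neurons. In the same order, 3, 0 and 0 of 7 oligodendrocyte genes were higher and 0, 0 and 4 lower. For 7 astrocyte genes 1, 0 and 0 were higher, and for 7 microglial genes 0, 2 and 0 were higher. The choroid plexus genes had 4, 0 and 0 of 6 higher and 0, 2 and 6 lower, and of the 3 tested hypothalamic genes Dot1l(fl/+) had 2 higher than in Dot1l(+/+) and Dot1l(fl/fl) had 3 lower than in Dot1l(fl/+). Of 5 tested blood cell genes 1 was lower in Dot1l(fl/+) than in Dot1l(+/+) and 1 higher in Dot1l(fl/fl) than in Dot1l(fl/+). No gene of these lists passed an adjusted p of 0.05.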

How the data were processed

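The sources describe 9 libraries, 3 per Dot1l genotype, made with a directional kit from pools of 3 mice. The deposited files hold raw counts per Ensembl gene, which the authors made from reads mapped to GRCm38.p4, per the labels with Trimmomatic 0.30 and bcl2fastq 2.17. Neither an aligner nor a counter, nor the release of the annotation, is given in the sources used here. Tables of the authors' own DESeq2 comparisons (fold changes and p-values) were deposited too and were not used. The labels' general description speaks of sorted embryonic cells, but every sample label names P180 and dissected midbrain, and these were followed.

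Of 47729 identifiers, 47224 matched a gene of GENCODE M21. The genotypes were compared with edgeR 4.0.16 in R 4.3.3: filterByExpr kept 17671 genes, TMM factors lay between 0.988 and 1.01, 1 quasi-likelihood fit of the 9 libraries had genotype as its single factor, and p-values were adjusted by Benjamini-Hochberg over all genes kept. The common biological coefficient of variation was 8.81%. Levels are CPM with TMM-scaled totals. Correlations and ratios used log2 CPM with a prior count of 2 and exact two-sided permutation tests, over 362880 pairings of the libraries or 20 splits of 6 libraries. Intervals and limits from counts cover counting error only, and a count of 0 was read as up to 3 counts. P-values measure the spread between pools of mice. A chi-square over genes gave 4.34 to 16.3 per degree of freedom for pairs of replicates, so all were counted as separate samples. DESeq2 1.42.0, other filters, other normalization, a replicate block and the removal of each library were tried as alternatives. The main edgeR fit was tested first on simulated data, for Dot1l(fl/fl) against Dot1l(+/+) and with the same spread for every gene.

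The members and the 13 gene lists beside them were chosen with earlier results of these data known. Named were all members, Th, Slc6a3, Slc18a2 and Ddc, up to 4 genes per list with the lowest p in any comparison, and the 10 genes most like Tph2, Slc6a4 and Fev. Pitx3, Dbh, Slc6a2, Nkx2-2, Maob, En1, Foxa2, Htr2b, Htr2c, Htr3b, Irx2, Hoxa2 and the Hox sums were named after their values were seen. Promoters came from RefSeq on GRCm38.p6, which held all 8 members. Figures were drawn with matplotlib 3.10.9 in Python 3.11.15.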

Additional observations from a re-analysis of the deposited data

How the results depend on the processing

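Over 354 alternative values of 21 fold changes of members, 338 kept direction and side of the adjusted threshold, 15 changed direction and 1 passed the threshold. That one was Tph2 in Dot1l(fl/fl) against Dot1l(fl/+) with no filter on low counts (1 member against 0, log2 fold change -0.92); its cause was not tested. With no filter, 2 members had an unadjusted p below 0.05 in Dot1l(fl/fl) against Dot1l(+/+) and 2 against Dot1l(fl/+), Tph2 and Slc6a4 both times. Slc6a4 was removed, with fewer genes tested, when 10 counts were required in every library.

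Genes of the whole table with an adjusted p below 0.05, 0 in each comparison as reported, numbered as follows for Dot1l(fl/+) against Dot1l(+/+), Dot1l(fl/fl) against Dot1l(+/+) and Dot1l(fl/fl) against Dot1l(fl/+). There were 251, 118 and 164 with no filter on low counts, 7, 3 and 14 with DESeq2 on 9 libraries, 1, 4 and 0 with edgeR and 42, 8 and 8 with DESeq2 on the 6 libraries compared, and 247, 4 and 189 without both Dot1l(fl/+) libraries of high hypothalamic counts, a setting chosen after the data were seen. The last setting leaves 1 library in Dot1l(fl/+), whose spread is assumed to be that of the other genotypes, so that its calls with Dot1l(fl/+) describe that library and not the genotype. Leaving out 1 library at a time gave 0 to 5, 0 to 4 and 0 to 12. Their causes were not tested.

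With that 1 library for Dot1l(fl/+), 1 member (Htr1b, -0.49) had an unadjusted p below 0.05 against Dot1l(+/+), and 3 (Tph2, Slc6a4 and Htr1b) between Dot1l(fl/fl) and Dot1l(fl/+). Directions then turned for Htr1a (0.14) against Dot1l(+/+), and for Gata2 (0.0021), Gata3 (-0.012) and Htr1a (-0.087) between Dot1l(fl/fl) and Dot1l(fl/+). Without 1 library, 0 to 1, 0 to 0 and 0 to 2 members had an unadjusted p below 0.05.

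Without 1 library, log2 fold changes ranged in Dot1l(fl/+) against Dot1l(+/+) from -0.32 to 0.77 for Tph2, -0.71 to 0.91 for Slc6a4, -0.30 to -0.045 for Htr1a, -0.28 to 0.030 for Htr1b, -0.21 to -0.036 for Gata3, -0.17 to -0.024 for Gata2 and -0.089 to 0.32 for Slc22a3. In Dot1l(fl/fl) against Dot1l(+/+) the range was -1.07 to -0.16 for Tph2, -1.47 to -0.068 for Slc6a4, -0.42 to -0.0085 for Slc22a3, -0.20 to -0.045 for Gata2, -0.12 to -0.025 for Gata3, 0.013 to 0.077 for Htr1a and -0.10 to 0.034 for Htr1b. In Dot1l(fl/fl) against Dot1l(fl/+) the range was -1.38 to -0.33 for Tph2, -1.79 to 0.057 for Slc6a4, -0.074 to 0.017 for Gata2, -0.021 to 0.15 for Gata3, 0.093 to 0.35 for Htr1a, -0.48 to -0.22 for Slc22a3 and -0.080 to 0.23 for Htr1b.

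The difference in the ratio of Slc6a3 to Slc6a4 ranged without 1 library from -1.49 to 0.97, -0.96 to 0.78 and -1.15 to 1.20 in the same order of comparisons, and that of Th to Tph2 from -1.07 to 0.33, -0.77 to 0.50 and -0.28 to 0.86. With a prior count of 0.5 the first of these turned to 0.12. Pearson r of Tph2 and Slc6a4 stayed between 0.968 and 0.985 without 1 library. Without the 2 libraries farthest from the median of Tph2, r turned to 0.029 for Gata2, -0.24 for Htr1a and 0.0017 for Slc22a3. Without 1 library, r ranged from -0.0060 to 0.44 for Fev, -0.12 to 0.60 for Gata3 and -0.22 to 0.46 for Htr1a. The range was -0.27 to 0.11 for Slc22a3, -0.50 to -0.0079 for Gata2 and -0.69 to -0.12 for Htr1b.

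By the study's methods the pools held litter mates of the 3 genotypes, but the labels do not say that equal replicate numbers mark shared litters, and the numbers were not taken as pairs. Deviations of same-numbered libraries correlated at 0.0222 to 0.317 in 9 pairs, against -0.267 to 0.108 in 18 other pairs, and 7 of 9 libraries correlated best with their own number. With the replicate block 0, 3 and 3 genes passed the adjusted threshold and no member did. The ratio tests and the correlation tests took no account of shared litters. The lowest counts, 0 to 11 for Fev and 1 for Slc6a4, set the limit of depth.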
